A study of Homo sapiens with 4 samples.

Results

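The genes described here are 10 factors that make histone mRNA, read from a table of 78932 genes measured by RNA sequencing. They were taken by symbol (SLBP, NPAT, LSM10, LSM11, ZNF473, CASP8AP2, CPSF2, CPSF3, SYMPK and ERI1), each symbol had 1 row, and all 10 passed the filter on low counts. The cells were RPMI 8226, a human multiple myeloma line whose sample labels spell it RPMI82266. One group carried an LNA ASO, an antisense oligonucleotide with locked nucleic acid bases that pairs with a chosen RNA, against CELF2 at 5 nM, and the other a control LNA ASO whose dose the labels do not give, both for 72 h. Each group had 2 libraries. Separate cultures are not named in any label, and p-values therefore reflect library-to-library spread that may be technical.

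Most mRNAs end in a poly(A) tail, but the mRNAs of the replication-dependent histones end in a short stem-loop instead. Their genes are transcribed at nuclear histone locus bodies during S phase, where NPAT drives transcription and CASP8AP2 (also called FLASH) gathers the processing machinery. SLBP binds the stem-loop, the U7 small nuclear ribonucleoprotein (snRNP) pairs with a downstream element, and a cleavage complex cuts between them. The mRNAs of the 10 factors themselves are ordinary polyadenylated mRNAs.

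Total counts ran from 23599190 to 29161298 per library. CELF2, the targeted RNA-binding protein gene, had 128 CPM in both control libraries and 56.4 and 48.6 CPM in the CELF2 ASO libraries (counts scaled to 1000000 per library with TMM factors). On the log2 scale it fell by 1.28, standard error 0.09 (edgeR adjusted p = 2.87e-05). All 10 plasma cell markers had counts, with summed levels of 4750 and 5320 CPM in the control and 12800 and 12300 CPM in the CELF2 ASO libraries. Most of that difference was IGLC2, and without it the sums were 3430 and 3670 CPM in the control and 4280 and 3650 CPM in the CELF2 ASO libraries. By edgeR adjusted p below 0.05, 4 of the 10 markers rose (IGLC2, IRF4, POU2AF1 and SLAMF7) and 4 fell (SDC1, TNFRSF17, PRDM1 and MZB1). Over all tested genes 27.5% rose and 27.9% fell. Summed T and NK cell markers stood at 268 and 266 CPM in the control and 67.8 and 40.5 CPM in the CELF2 ASO libraries. Nearly all of it was CD8B, while CD3D and CD2 had 0 CPM in both control libraries. Of 4 T and NK cell markers tested, 2 fell (CD8B and ZAP70). Myeloid markers summed to 8.16 and 9.23 CPM in the control and 3.63 and 3.80 CPM with the CELF2 ASO. LYZ and S100A8 were at 0 in every library. Of 4 myeloid markers tested, 3 fell (CD14, FCGR1A and S100A9). Stromal and epithelial markers summed to 127 and 124 CPM in the control and 94.4 and 96.0 CPM with the CELF2 ASO. Most of the control sums came from EPCAM (62.0 and 63.6 CPM) and KRT18 (57.1 and 52.3 CPM). Of these markers 2 fell (EPCAM and COL1A1) and 1 rose (KRT8). The part of these markers in the results was not tested.

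The RNA elements that these factors recognise are shown because the factors' roles are defined by them: SLBP and ERI1 bind the stem-loop, and LSM10 and LSM11 sit on the U7 RNA. GENCODE 29 transcripts of 68 replication-dependent histone genes were searched for 16-base runs that open with GGC, close with GCC, pair arm to arm (G with T allowed) and have a loop that starts with TTT, and 28 genes had one. In the other 40 genes no such run was found, which does not show that the element is missing from their mRNAs. A match could lie anywhere in a transcript, so the gene counts describe this search only. The 5 forms found are written 5′ to 3′, with the 6-base stem arms in capitals and the loop in lower case. The first form was found in 15 genes of H2A, H2B and H3, the second in 5 genes, all of H4, the third in 4 genes of H2B and H3, the fourth in 3 genes, all of H4, and the fifth in 1 gene, H2AC11. Counted from 1 at the 5′ end, the second form differs from the first by T4C and A13G, the third by C10A, the fourth by T4C, C10T and A13G, and the fifth by A13G.
Stem-loop form 1: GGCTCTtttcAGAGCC
Stem-loop form 2: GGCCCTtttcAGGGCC
Stem-loop form 3: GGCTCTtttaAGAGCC
Stem-loop form 4: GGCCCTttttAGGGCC
Stem-loop form 5: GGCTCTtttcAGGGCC

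The U7 RNA, from RNU7-1 (ENSG00000238923, GRCh38 chromosome 12, 6943816 to 6943878, plus strand), is 63 bases long in GENCODE 29. Its capitals mark the site of bases 21 to 31 on which the ring of Sm and LSM proteins, LSM10 and LSM11 among them, assembles.
U7 RNA as DNA letters: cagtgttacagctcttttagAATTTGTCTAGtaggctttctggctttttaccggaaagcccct
RNU7-1 was listed at 0 in all 4 libraries, which does not show that this 63-base RNA was absent from the cells. The values that follow are for the proteins' mRNAs.

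Of the 10 factors, 5 fell with the CELF2 ASO and none rose, by edgeR's quasi-likelihood test with Benjamini-Hochberg adjustment over 19511 genes at a threshold of 0.05. Over all genes tested 27.9% were lower and 27.5% higher (55.5% in either direction), and among protein-coding genes 35.4% were lower. The factors' median log2 fold change was -0.30, against 0.04 over all genes. The fallen members were SLBP, LSM10, SYMPK, ERI1 and CPSF2, and their ratios to control ran from 56.9% to 78.1%. In 9 of the 10 the groups were apart, 8 lower and 1 higher with the CELF2 ASO. Over all tested genes 79.6% were apart, 38.4% lower and 41.2% higher, so the count of 9 lies near the background. In the same libraries 18 of 20 S phase genes fell. In bulk RNA, fewer cells in S phase and less RNA per cell cannot be told apart, and the part of S phase genes in the factors' fall was not tested.

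**Figure D1:**
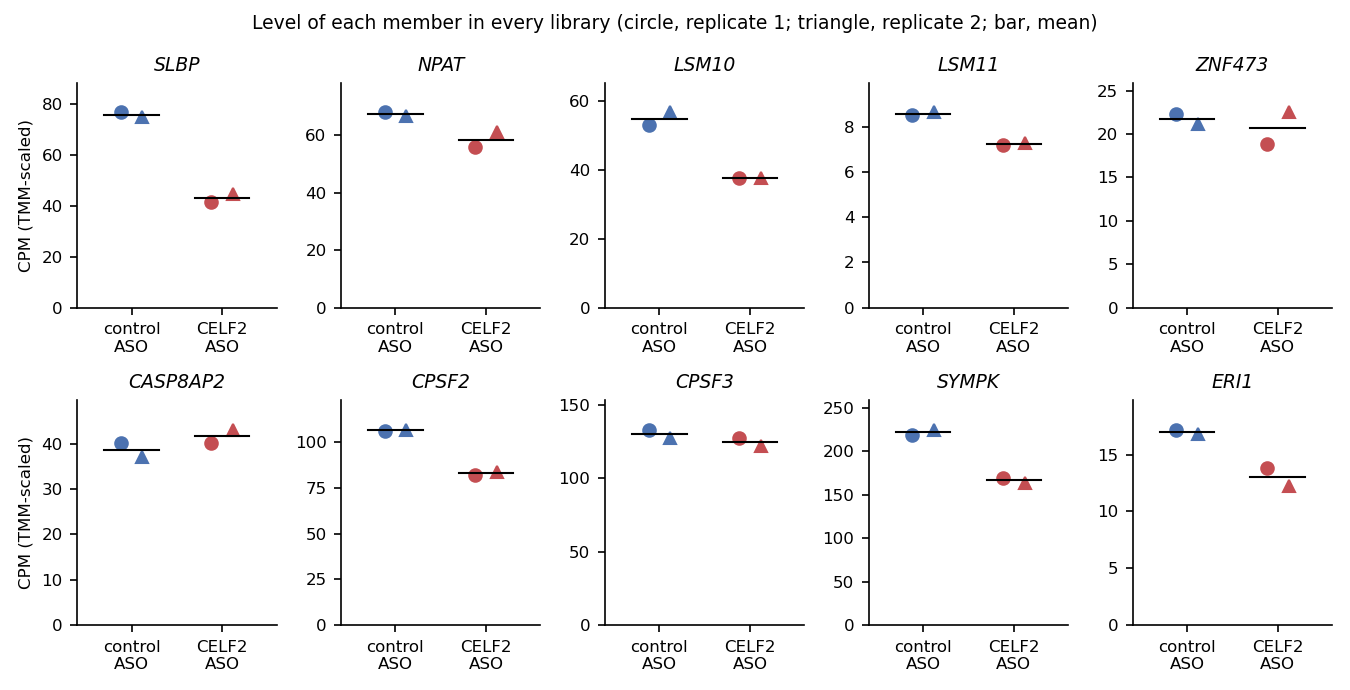
Level of each of the 10 factors in CPM in the 2 control ASO libraries (blue) and the 2 CELF2 ASO libraries (red), with a bar at the mean of each group and every axis starting at 0. Relative to its control level SLBP shows the widest gap, from 75.8 to 43.1 CPM on average, while the groups interleave for ZNF473.

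SLBP, the stem-loop binding protein (ENSG00000163950, GRCh38 chromosome 4, 1692800 to 1712555, minus strand), which accompanies histone mRNA from processing to translation, had the largest fold change of the 10. It had 76.7 and 74.8 CPM in the control libraries and 41.5 and 44.8 CPM in the CELF2 ASO libraries. Both CELF2 ASO libraries lay well below both controls. The change was 1.76-fold, with a log2 fold change of -0.81, a standard error of 0.08 and a 95% interval of -0.99 to -0.63 (edgeR adjusted p = 0.000109). Of all tested genes, 16% had a lower fold change, so larger falls were common.

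ERI1 (ENSG00000104626, GRCh38 chromosome 8, 9002147 to 9116746, plus strand) encodes a 3′ exonuclease that binds the same stem-loop, trims the mature end and takes part in histone mRNA decay. It had 17.2 and 16.8 CPM in the control libraries and 13.8 and 12.2 CPM in the CELF2 ASO libraries. Both CELF2 ASO values lay below both controls, and the log2 fold change between the groups was -0.39, standard error 0.12 (edgeR adjusted p = 0.0243). This call was lost with libraries scaled by totals alone (adjusted p = 0.106), without control_LNA_ASO replicate 1 (adjusted p = 0.133) and without control_LNA_ASO replicate 2 (adjusted p = 0.106).

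At the histone locus body, neither factor passed the threshold. NPAT (ENSG00000149308, GRCh38 chromosome 11, 108157215 to 108222642, minus strand), a coactivator that cyclin E and CDK2 phosphorylate, had 68.0 and 66.8 CPM in the control and 56.0 and 61.0 CPM in the CELF2 ASO libraries. Both CELF2 ASO values lay below both controls. The log2 fold change was -0.20 with a 95% interval of -0.39 to -0.02 (edgeR adjusted p = 0.0576). It passed with RLE scaling (adjusted p = 0.0399) and with no low-count filter (adjusted p = 0.0276). It also passed when CELF2_LNA_ASO replicate 2 was left out (adjusted p = 6.14e-05), a fit that reads its spread from controls only.

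CASP8AP2 (ENSG00000118412, GRCh38 chromosome 6, 89829894 to 89874436, plus strand), which binds LSM11 and helps bring in the cleavage complex, was the only member with a positive estimate. It had 40.1 and 37.1 CPM in the control libraries and 40.2 and 43.1 CPM in the CELF2 ASO libraries. CELF2 ASO replicate 1 and control replicate 1 were nearly level. The log2 fold change was 0.11 with a 95% interval of -0.09 to 0.31 (edgeR adjusted p = 0.318).

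Of the U7 snRNP proteins, LSM10 fell and the calls for LSM11 and ZNF473 did not pass. LSM10 (ENSG00000181817, GRCh38 chromosome 1, 36391238 to 36397892, minus strand) takes the place that SmD1 holds in the spliceosomal ring. It had 52.8 and 56.6 CPM in the control libraries and 37.7 and 37.5 CPM in the CELF2 ASO libraries. The CELF2 ASO libraries were nearly equal and far below the controls, with a log2 fold change of -0.54 and a standard error of 0.08 (edgeR adjusted p = 0.000862).

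LSM11 (ENSG00000155858, GRCh38 chromosome 5, 157743695 to 157760709, plus strand), which takes the place of SmD2, was the least abundant member, with 174 to 239 counts per library. Its levels were 8.52 and 8.63 CPM in the control and 7.19 and 7.27 CPM in the CELF2 ASO libraries. The groups did not overlap, but the log2 fold change of -0.25 had a 95% interval of -0.55 to 0.06 (edgeR adjusted p = 0.146). ZNF473 (ENSG00000142528, GRCh38 chromosome 19, 50025714 to 50053414, plus strand), a zinc finger protein that links SLBP-bound RNA to the U7 snRNP, had 22.3 and 21.2 CPM in the control and 18.9 and 22.5 CPM in the CELF2 ASO libraries. Here the groups overlapped. The log2 fold change was -0.07 with a 95% interval of -0.35 to 0.20 (edgeR adjusted p = 0.631), and its sign turned with library totals alone (0.04) and without CELF2_LNA_ASO replicate 1 (0.06). Without CELF2_LNA_ASO replicate 2 it was -0.22 and passed (adjusted p = 0.0403), again with spread read from controls only.

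In the cleavage complex, the scaffold SYMPK and the subunit CPSF2 fell, while the call for the nuclease CPSF3 did not pass. SYMPK (ENSG00000125755, GRCh38 chromosome 19, 45815410 to 45863290, minus strand) had 219 and 225 CPM in the control and 169 and 164 CPM in the CELF2 ASO libraries. The groups stood apart by far more than their spread, with a log2 fold change of -0.42 and a standard error of 0.07 (edgeR adjusted p = 0.00189). CPSF2 (ENSG00000165934, GRCh38 chromosome 14, 92121937 to 92172145, plus strand), the inactive partner of the nuclease, had 106 and 107 CPM in the control and 82.0 and 83.9 CPM in the CELF2 ASO libraries. Both libraries of each group were close to each other and the groups were apart, at a log2 fold change of -0.36, standard error 0.07 (edgeR adjusted p = 0.00374). Its call was lost without control_LNA_ASO replicate 2 (adjusted p = 0.0503).

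CPSF3 (ENSG00000119203, GRCh38 chromosome 2, 9423568 to 9473101, plus strand), the endonuclease that cuts both histone and polyadenylated pre-mRNA, had 133 and 127 CPM in the control and 127 and 122 CPM in the CELF2 ASO libraries. The lowest control and the highest CELF2 ASO library were nearly level. The log2 fold change was -0.06 with a 95% interval of -0.23 to 0.11 (edgeR adjusted p = 0.493), and it was 0.05 with library totals alone. Scaling by totals moved the median of all genes from 0.04 to 0.16 on the log2 scale.

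**Figure D2:**
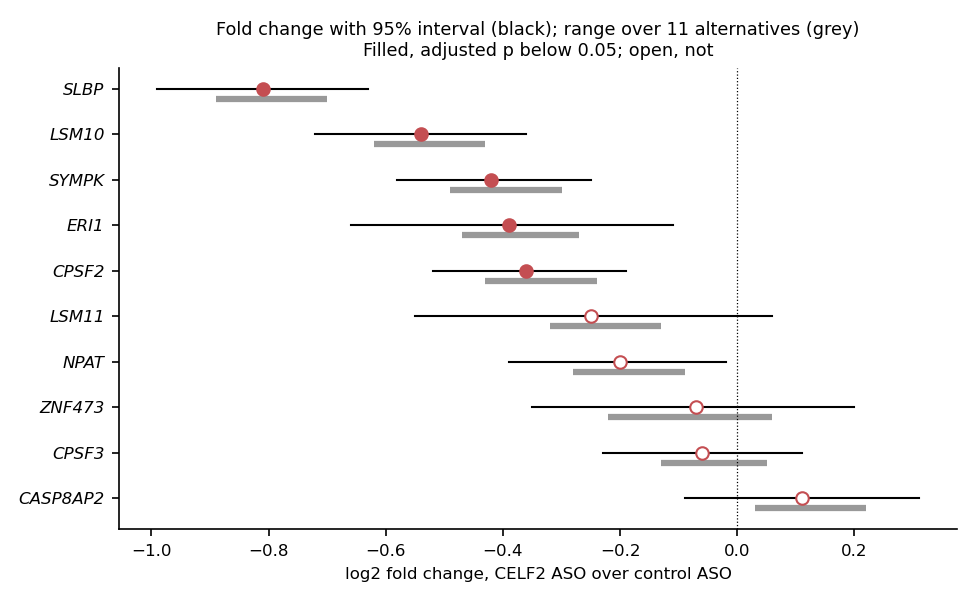
Log2 fold change of each factor, CELF2 ASO over control ASO, with its 95% interval in black and the range over 11 alternative settings in grey. SLBP at -0.81 lies lowest, the 5 filled points passed the threshold, and the grey ranges of ZNF473 and CPSF3 cross 0.

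Per kilobase of annotated exon, the factors fell into a few with high and several with low levels. The divisor was all annotated exonic bases of a gene, from 1496 for LSM10 to 13595 for CPSF2, not the length of 1 mRNA. The order depends on it. In plain CPM the control means were 222 for SYMPK, 130 for CPSF3, 106 for CPSF2, 75.8 for SLBP and 54.7 for LSM10. In CPM per kilobase of annotated exon, the control levels were 37.4 ± 0.68 for SLBP, 36.5 ± 1.82 for LSM10 and 34.5 ± 1.03 for CPSF3 (SD, n = 2). SLBP and LSM10 did not differ beyond their spread, and LSM10 and CPSF3 nearly touched. SYMPK followed at 20.9 ± 0.409, then NPAT at 8.95 ± 0.109, CPSF2 at 7.82 ± 0.0793 and CASP8AP2 at 4.73 ± 0.261. ZNF473, ERI1 and LSM11 were lowest, at 3.15 ± 0.113, 2.66 ± 0.0379 and 1.30 ± 0.0121. In the CELF2 ASO libraries CPSF3 stood first at 33.1 ± 0.844 CPM per kilobase, LSM10 next at 25.1 ± 0.116 and SLBP after it at 21.3 ± 1.16, and the other 7 kept their places. LSM10 was second and LSM11 last in both groups, although their proteins sit in 1 ring.

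The histone mRNAs themselves were lower as well, as a share of counts. The 68 replication-dependent histone genes took 1.96% and 1.88% of all counts in controls, and 0.691% and 0.713% with the CELF2 ASO. The labels describe both poly(A) selection and removal of ribosomal RNA, and these select histone mRNA differently, so the shares are given only side by side. For each SLBP count there were 266 and 262 histone counts in the control and 156 and 157 in the CELF2 ASO libraries, so the histone sum was lower by more than SLBP was. With 2 libraries per group an exact permutation test of such a ratio cannot go below p = 0.333. All 15 genes with stem-loop form 1 fell, at a median of -1.58 on the log2 scale. For form 2 it was 3 of 5 with a median of -0.87, for form 3 it was 3 of 3 tested with a median of -1.74, and for form 4 it was 3 of 3 with a median of -1.46. The single gene of form 5, H2AC11, fell with a log2 fold change of -1.61. Over all tested genes 27.9% were lower, and among protein-coding genes 35.4%. Of the 68 histone genes 57 were tested, and those without a match to a form are not counted here. The counts therefore do not set genes with a form apart from the other histone genes. Histone genes of the same class are near-identical copies, so single genes are uncertain, and no test compared the forms.

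Some of the factors start head to head with another gene, a pair of genes on opposite strands with starts within 1000 bases. NPAT with ATM and ZNF473 with VRK3 overlap at their annotated starts, by 159 and 233 bases. Of 4 opposite genes tested, 3 passed the threshold, where 55.5% of all tested genes did. CPSF3 starts 21 bases from ITGB1BP1, which encodes an integrin-binding adaptor. ITGB1BP1 had 64.8 and 62.2 CPM in the control and 20.7 and 18.6 CPM in the CELF2 ASO libraries. It fell 3.23-fold, with a log2 fold change of -1.69 and a 95% interval of -1.90 to -1.48 (edgeR adjusted p = 1e-05), while the interval of CPSF3 ended at -0.23. The number of CPSF3 counts per ITGB1BP1 count was 2.05 in both controls, against 6.13 and 6.57 with the CELF2 ASO.

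NPAT starts 158 bases from ATM, the DNA damage kinase gene, and the 2 annotated genes share 143 exonic bases. ATM had 96.7 and 94.0 CPM in the control and 150 and 161 CPM in the CELF2 ASO libraries. It rose 1.63-fold, with a log2 fold change of 0.71 and a 95% interval of 0.53 to 0.88 (edgeR adjusted p = 0.000174). There were 0.703 and 0.711 NPAT counts per ATM count in the control and 0.373 and 0.380 in the CELF2 ASO libraries. For both pairs the exact two-sided permutation test of the ratio over libraries gave p = 0.333, the smallest possible. It gave the same p for CPSF2 with NDUFB1 and for ZNF473 with VRK3, so it does not set any pair apart.

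CPSF2 starts 20 bases from NDUFB1, a subunit gene of respiratory complex I, which fell with a log2 fold change of -0.54 and a standard error of 0.10 (edgeR adjusted p = 0.00245). ZNF473 starts 232 bases from the kinase gene VRK3, with which it shares 223 exonic bases, and the log2 fold change of VRK3 was -0.20 (edgeR adjusted p = 0.0743). SYMPK starts 699 bases from FOXA3, which had 1 to 5 counts per library. The strand setting of the counting is not given in the sources used here, so reads in exonic stretches shared by opposite genes cannot be told apart.

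**Figure D3:**
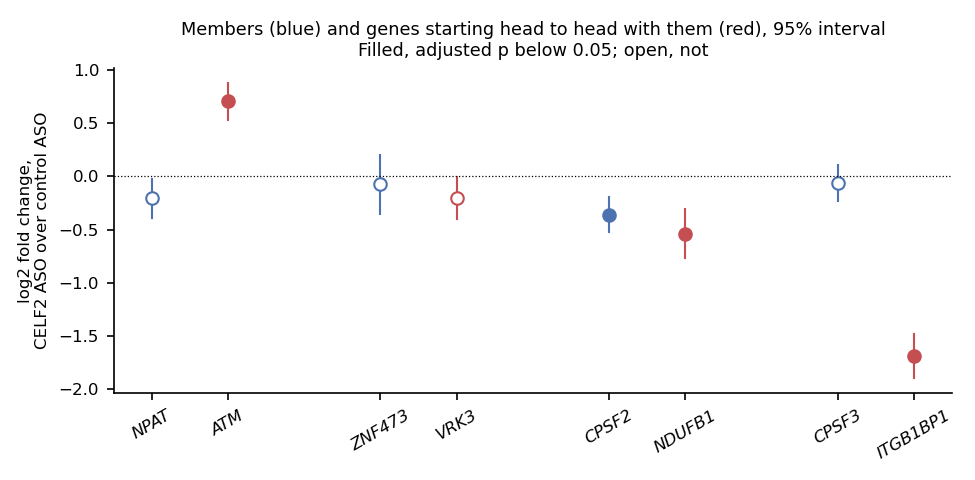
Log2 fold change with 95% interval of 4 members (blue) and of the genes that start head to head with them (red). ITGB1BP1 at -1.69 and ATM at 0.71 lie far from their partners CPSF3 and NPAT, and NDUFB1 and VRK3 lie near theirs.

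Promoter windows of 250 bases before the RefSeq start (GRCh38.p14) were held for 8 of the 10 factors and searched on both strands for a few letter strings. TTTGGCGC, a form of the E2F motif, was in the windows of CASP8AP2 and CPSF3 and in 0.55% of 35116 promoters. TTTCCCGC (1.39% of promoters), the palindromic NRF1 motif (1.03%) and TGATGCAA of ATF4 with C/EBP (0.772%) were in none of the 8. CCAAT, the NF-Y motif, was in those of CASP8AP2, CPSF2, LSM10 and NPAT and in 32% of promoters. A match is a description of letters. In 6 of the 8 windows, 4 to 236 bases lie inside the member's own gene as GENCODE 29 annotates it, since the starts differ between annotations. The window of SLBP, with 236 such bases, held none of these strings.

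The window of LSM10, the member with the second largest fall, and that of CASP8AP2, the member with a positive estimate, are shown with matches in capitals. In LSM10 (chr1:36397909-36398158, minus strand) CCAAT lies from -101 to -97 relative to the start. In CASP8AP2 (chr6:89829630-89829879, plus strand) TTTGGCGC lies from -149 to -142, and CCAAT lies on the opposite strand from -65 to -61 and from -15 to -11.
LSM10: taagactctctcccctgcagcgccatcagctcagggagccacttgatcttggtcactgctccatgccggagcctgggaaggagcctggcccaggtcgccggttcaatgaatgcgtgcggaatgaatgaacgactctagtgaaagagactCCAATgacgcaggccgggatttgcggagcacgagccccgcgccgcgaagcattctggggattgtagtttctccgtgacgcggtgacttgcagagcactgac
CASP8AP2: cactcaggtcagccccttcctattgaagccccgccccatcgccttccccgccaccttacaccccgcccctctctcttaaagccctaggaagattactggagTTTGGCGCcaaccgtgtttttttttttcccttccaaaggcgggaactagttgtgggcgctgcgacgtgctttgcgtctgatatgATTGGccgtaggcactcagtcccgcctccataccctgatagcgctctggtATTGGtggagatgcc

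The partners of the 10 factors were read from 9 lists with 130 genes, of which 129 were tested. In these lists 85 genes fell and 15 rose, with a median log2 fold change of -0.48. Lower calls were held by 27.9% of all tested genes and 35.4% of protein-coding genes, and higher calls by 27.5% and 28.0%. The same shares stand beside the counts of each list below.

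Among Sm ring and snRNP assembly genes, 13 of 15 tested fell and 2 rose, with a median of -0.92. SNRPD1, whose protein LSM10 replaces in the U7 ring, fell 1.89-fold, from 88.4 ± 3.74 to 46.9 ± 2.91 CPM (SD, n = 2; edgeR adjusted p = 7.8e-05). SNRPD2, whose protein LSM11 replaces, fell 1.58-fold, from 196 ± 11.8 to 124 ± 4.5 CPM (edgeR adjusted p = 0.000314). The arginine methyltransferase gene PRMT5, which modifies Sm proteins before assembly, fell 3.03-fold, and GEMIN5, which recognises snRNAs for the SMN complex, fell 3.93-fold. SNRPD3 rose 1.26-fold and GEMIN2 rose 1.65-fold, so the ring's subunit genes did not all move one way.

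Of 17 general cleavage and polyadenylation factors, 11 fell and 1 rose, with a median of -0.37. CSTF2, which is also found in the histone cleavage complex, fell 2.39-fold, from 77.7 ± 2.02 to 32.5 ± 0.295 CPM (SD, n = 2; edgeR adjusted p = 1.53e-05). The poly(A) polymerase gene PAPOLA fell 1.58-fold, and RBBP6 rose 1.33-fold. In Integrator, which cuts small nuclear RNA precursors with paralogs of CPSF3 and CPSF2, 7 of 15 fell and 1 rose (median -0.29). The CPSF3 paralog INTS11 fell 1.49-fold (edgeR adjusted p = 0.000512) and the CPSF2 paralog INTS9 fell 1.38-fold (edgeR adjusted p = 0.00584). INTS1 and INTS7 fell 2.08-fold and 1.88-fold, and INTS3 rose 1.34-fold.

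Of 12 histone transcription and locus body partners, 6 fell and 2 rose, with a median of -0.23. CCNE1, the cyclin that with CDK2 phosphorylates NPAT, fell 4.25-fold, from 10.3 ± 0.139 to 2.43 ± 0.127 CPM (SD, n = 2; edgeR adjusted p = 3.36e-05). CDK2 fell 1.75-fold. The log2 fold change of CCNE2 was 0.13 (edgeR adjusted p = 0.593), and that of HINFP, the histone H4 gene transcription factor, was 0.06 (edgeR adjusted p = 0.651). SP1 rose 1.69-fold and GON4L rose 1.34-fold.

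Of 10 cap-bound and elongation factors, 5 fell and 1 rose, with a median of -0.57. SRRT, known as ARS2, which joins the cap-binding complex to 3′ end processing, fell 4.49-fold, from 390 ± 6.86 to 87.0 ± 8.83 CPM (SD, n = 2; edgeR adjusted p = 5.77e-06). NELFB, a subunit of the negative elongation factor, fell 2.1-fold, and the cap-binding gene NCBP2 rose 1.2-fold. Of 11 genes that act on SLBP protein, 7 fell and 1 rose, with a median of -0.43. CCNF, the F-box cyclin that targets SLBP for destruction, fell 4.15-fold, from 150 ± 2.37 to 36.1 ± 1.8 CPM (SD, n = 2; edgeR adjusted p = 4.26e-06). The ubiquitin ligase scaffold gene CUL4B rose 1.77-fold. SLBP protein was not measured.

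Of 9 histone mRNA export and translation genes, 7 fell and 1 rose (median -0.73). The export adaptors SRSF7 and SRSF3 fell 2.55-fold and 1.92-fold. MIF4GD, the SLBP-interacting translation factor, rose 1.45-fold, from 38.6 ± 1.98 to 56.1 ± 6.35 CPM (SD, n = 2; edgeR adjusted p = 0.00263).

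Of 20 histone mRNA decay genes, 11 fell and 6 rose (median -0.32). All 7 genes of the LSM1 to LSM7 ring, which binds the oligouridylated end, were among those that fell. LSM2 fell 2.12-fold and LSM7 fell 2.92-fold. TUT4 and TUT7, which add uridines to RNA ends, rose 1.54-fold and 1.26-fold, and the decapping enzyme gene DCP2 rose 1.4-fold.

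**Figure D4:**
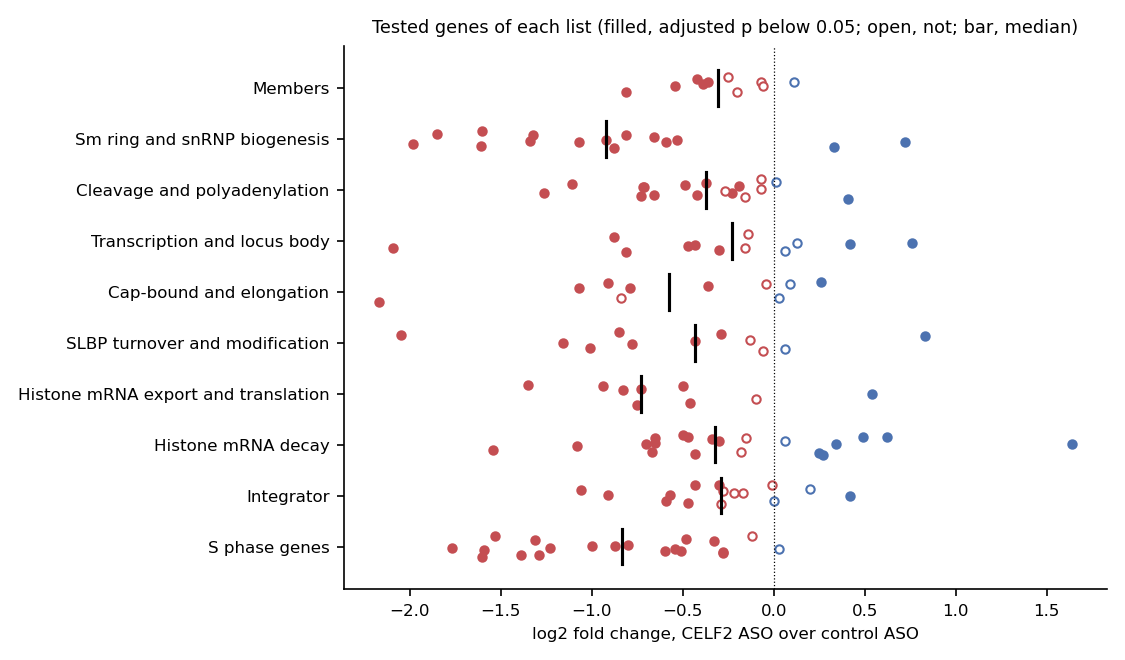
Log2 fold change of every tested gene in the 9 partner lists and of the 10 factors, with red for negative and blue for positive values and a bar at each list's median. The medians of all lists lie below 0, from -0.92 for Sm ring and snRNP assembly to -0.23 for transcription and locus body partners.

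Of the 20 S phase genes, 18 fell and 0 rose (median -0.83). MCM5, a subunit of the replicative helicase, fell 2.88-fold and SLC29A1, a nucleoside transporter, fell 3.41-fold.

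By their levels centred over the 4 libraries, the genes closest to SLBP among 12607 were BCL9, EIF6 and SF3A1, at Euclidean distances of 0.0201, 0.0209 and 0.0257 on the log2 CPM scale. BCL9 fell 1.74-fold, EIF6 1.73-fold and SF3A1 1.78-fold. Closest to NPAT were PRPF4B, NPEPPS and CLTC, at distances of 0.00956, 0.0096 and 0.0173. Their log2 fold changes were -0.20, -0.21 and -0.19. With 4 libraries in 2 groups, such closeness reflects little beyond a like difference between the groups.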

How the data were processed

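RNA from 4 libraries was analysed. The authors deposited raw read counts for each gene. The submitters' processing notes name GRCh38, Salmon 1.10.0, featureCounts 2.0.8, Subread, STAR 2.7.11b and bcl2fastq. For the annotation release and strand setting, nothing is given in the sources used here. Of 79029 rows, 97 ERCC spike-in and reporter rows (1 to 3 counts per library) were left out.

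Counts were filtered with filterByExpr (minimum count 10, minimum total 15) and scaled by TMM. They were compared with the two-sided quasi-likelihood test of edgeR 4.0.16 in R 4.3.3, with no covariate, in a script tested on simulated data. Standard errors are the absolute log2 fold change over the square root of F. Alternatives included DESeq2 1.42.0 and limma 3.58.1. Over genes, chi-square per degree of freedom was 3.38 between controls and 18.5 between CELF2 ASO libraries, so libraries of a group differed beyond sampling noise. Positions, overlaps and exon lengths came from GENCODE 29, promoters from RefSeq, and symbols matched 61481 of 78932 gene IDs. Of these IDs 57356 were in GENCODE 29, so the gene models that were counted may differ from those used for lengths and positions. Motifs were searched only in the 250 bases before the start in RefSeq, not after it as first planned. Protein sequences were not used here.

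The members and lists were chosen with earlier results of these data known. Named were all members, up to 2 genes per list and direction with the smallest adjusted p, ring partners and paralogs, head-to-head neighbours, and the 3 closest genes to SLBP and NPAT; 1 gene so named is not reported here. CCNE2, HINFP, TUT7 and the genes of the closing observations were named after their values were seen.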

Additional observations from a re-analysis of the deposited data

How the results depend on the processing

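Over 11 alternatives, SLBP, LSM10 and SYMPK kept their call in all 11, CPSF2 in 10 and ERI1 in 8. Log2 fold changes of SLBP ran from -0.89 to -0.70. Leaving out 1 library gave 3 to 7 called members against 5, with 3 without control_LNA_ASO replicate 2 and 7 without CELF2_LNA_ASO replicate 2. Without a control library only the CELF2 ASO pair gives the spread (biological coefficient of variation 13.7%), and without a CELF2 ASO library only the control pair does (3.58%). The sign turned for ZNF473 with library totals alone (0.04) and without CELF2_LNA_ASO replicate 1 (0.06), and for CPSF3 with library totals alone (0.05). ZNF473 passed without CELF2_LNA_ASO replicate 2 (-0.22). The labels' numbers do not pair the libraries by any label, and deviations of same-numbered libraries correlated at 0.0343 over 19511 genes. With the number as a replicate block, 10807 genes, 5 members and 96 partner genes were called, against 10824, 5 and 100. LSM11 had the fewest counts of the members, and the part of depth in its missing call was not tested.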

Other observations

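Some cell cycle genes of the partner lists did not pass the threshold. CDC6, the origin licensing factor, had 184 and 197 CPM in the control and 193 and 197 CPM in the CELF2 ASO libraries. The log2 fold change of MCM3 was -0.12 (edgeR adjusted p = 0.179). CDK1, the mitotic kinase that with cyclin A marks SLBP for turnover, was at 0.06 (edgeR adjusted p = 0.587), while its partner CCNA2 fell 2.02-fold. XRN1, the cytoplasmic 5′ exonuclease, had the largest rise of the 129 tested partner genes, 3.11-fold. It had 51.7 and 54.2 CPM in the control and 123 and 207 CPM in the CELF2 ASO libraries, and its spread between the CELF2 ASO libraries was wider than that of any of the 10 factors.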
